A study of Homo sapiens with 18 samples.

Results

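The genes described here are the machinery that takes a cell from G1 into S phase and copies its DNA, with the inhibitors that hold that step back. They were chosen by function, from a list of 58 gene symbols, and every probe set that the platform annotation assigns to 1 of these symbols was taken. Of the 58 genes, 57 had a probe set, 121 probe sets in all, out of 19775 genes with a symbol on the array. CDKN2C has no probe set in the annotation used here and therefore no values. A signal filter, a mean above log2(40) over the 9 arrays of a time point, kept 98 of the 121 probe sets at 6 h and 101 at 24 h, and 56 genes at each time. CCND2, which encodes cyclin D2, did not pass it: its 4 probe sets had mean log2 signals of 2.99 to 3.88.

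The study asked what a short exposure to cocaine does to transcripts of cultured neuron-like cells. SH-SY5Y, a human neuroblastoma cell line, was differentiated in every group with 10 μM retinoic acid for 7 days and then kept for 24 h without it. Cells received 0, 1 or 5 μM cocaine for 30 min and were harvested at 6 or 24 h. The descriptions of the 5 μM samples also hold the words non-treated control, as those of the 0 μM samples do, so the dose was taken from the titles, which give 5 μM. Each of the 6 groups has 3 Affymetrix U133 Plus 2.0 arrays, each made from RNA pooled from 3 dishes, so a group rests on 9 dishes of 1 cell line. The 0 μM cells are called untreated below. Because the authors normalised the 6 h and the 24 h arrays separately, levels were compared only within a time. Expression in such a mixed dish cannot separate fewer cells in S phase from less RNA per cell.

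In G1, D-type cyclins with CDK4 or CDK6, and then cyclin E with CDK2, phosphorylate the retinoblastoma family of pocket proteins, which frees E2F transcription factors to switch on the genes for DNA replication. Origin recognition proteins, CDC6 and CDT1 load the MCM2 to MCM7 ring onto DNA, CDC45 and the GINS complex turn that ring into an active helicase, and the polymerases with PCNA and its loader copy the strands. The Cip/Kip inhibitors CDKN1B and CDKN1C and the INK4 inhibitors oppose the kinases, and retinoic acid is known to slow neuroblastoma cells in G1.

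A feature that the choice by function did not use is the E2F motif. Promoters of 300 bases, from 250 before to 50 after the start, were read from RefSeq on GRCh38.p14, where 48 of the 58 genes have an entry. CCND1, CCND2, CCNE2, CDK2, CDKN1C, E2F5, MCM4, MCM5, RPA2 and ATAD2 have none. The letters TTTCCCGC, TTTGGCGC, TTTCGCGC and TTTGCCGC were searched on both strands. They occurred in the promoters of 21 of the 48 genes, 43.8%, and in 3.99% of the 27305 genes with a promoter in the table. Among 49 other genes of the same pathway, outside the 58, they occurred in 14 of the 43 with a promoter, 32.6%. Among 28 G2/M and mitosis genes they occurred in 3 of 22, 13.6%. Within the 48 genes the share was 7 of 10 in the licensing genes, 3 of 5 in the helicase genes and 4 of 8 in the pocket protein and E2F genes. It was 5 of 13 in the DNA synthesis genes and 2 of 5 in those of nucleotides and S phase chromatin. It was 0 of 4 in the cyclins and CDKs and 0 of 3 in the inhibitors. Windows of 30 bases are shown for the genes that pass a test further on and hold the letters, with the match in capitals and each window in the direction of the gene. MCM7 has 2 matches, at -187 and -9 from the start, and only the window of the latter is shown.
GINS2: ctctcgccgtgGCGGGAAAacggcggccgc
CDT1: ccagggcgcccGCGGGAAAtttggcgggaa
POLE: tgggtgggagcGCGCCAAAtttctcccctg
E2F2: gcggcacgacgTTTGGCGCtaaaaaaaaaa
POLA1: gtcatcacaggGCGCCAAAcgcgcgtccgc
MCM7: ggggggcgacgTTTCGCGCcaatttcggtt
These windows lie at chr16:85688967-85688996 on the minus strand, chr16:88803743-88803772 on the plus strand, chr12:132687342-132687371 on the minus strand, chr1:23531257-23531286 on the minus strand, chrX:24693770-24693799 on the plus strand and chr7:100101388-100101417 on the minus strand, in the order shown. The match is a description of the letters and not of a factor bound there.

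Some arrays stood apart before any comparison of these genes. Untreated arrays 2 and 3 at 6 h had a mean log2 signal of 10.9 over the 4 retinoid-induced genes CYP26A1, CYP26B1, DHRS3 and RARB, against 7.11 to 7.36 on the other 7 arrays of that time, and untreated array 3 at 24 h had 10.1 against 7.37 to 8.33 on the others. For ACTB, the 3′ minus the 5′ control probe set (log2) at 6 h was 0.548, 1.12 and 0.894 on the untreated arrays and 0.493 to 0.539 at 5 μM. At 24 h it was 0.488 to 0.654 untreated and 0.686 to 1.03 at 5 μM. The spiked bioD signal minus the cre signal was -1.11 to -1.02 on the untreated arrays at 6 h and -1.64 to -1.50 on the 6 cocaine arrays, whereas at 24 h it was -1.28 to -1.12 in all groups. At 24 h bioB and bioC minus cre were higher at 5 μM than untreated on every array, by 0.156 and 0.161. The part of these differences in the results on the members was not tested. Of the sympathetic neuroblast markers with a probe set, 8 of 9 passed the filter at both times, among them PHOX2A, HAND2 and GATA3. The exception was TH, tyrosine hydroxylase, an enzyme of dopamine synthesis, at a mean of 3.50 at 6 h and 3.87 at 24 h. That is an RNA signal at the only TH probe set, whereas the study used TH protein on a Western blot as a marker of the differentiated cells. Further, 5 of 7 markers of the substrate-adherent cell type of neuroblastoma lines passed. COL1A2 (4.29 at 6 h and 4.76 at 24 h) and PRRX1 (3.72 and 4.64) did not. Of the Schwann and glial cell markers with a probe set 1 of 3 passed at both times, SOX10, at 5.48 at 6 h and 5.89 at 24 h. Of the blood or liver markers 1 of 3 passed at both times, HBB, at 5.34 and 5.78, against a filter of 5.32. Arrays with the same replicate number deviated together: every one of the 9 same-number correlations at each time was positive, 0.377 to 0.768 at 6 h and 0.424 to 0.733 at 24 h. Fits with the number as a block are therefore given beside the others where they change a call.

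At 6 h after 5 μM cocaine, 4 of the 98 member probe sets differed from untreated cells at an adjusted p under 0.10, or 4.08%, against 2.98% of all 22455 probe sets tested. They were 1 probe set each of ATAD2, RBL2 and GINS2, which were higher (1.57% of all), and of CDKN1C, which was lower (1.42% of all). With the replicate number as a block, 14 member probe sets passed, 6 higher and 8 lower, or 14.3%, against 18.6% of all probe sets, 7.75% higher and 10.9% lower. The arrays of the 2 groups did not overlap for 14 of the 98, against 21.2% of all probe sets. These shares are close to or below those of the array as a whole, and no role group had more than 1 probe set past the threshold without the block.

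Among the inhibitors CDKN1C fell. It encodes p57, a Cip/Kip inhibitor of the G1 cyclin-dependent kinases. The log2 signals of its brightest probe set, 213348_at, were 8.99, 9.21 and 9.31 in untreated cells, 9.00, 8.93 and 8.97 at 1 μM and 8.77, 8.82 and 8.90 at 5 μM. All 3 arrays at 5 μM lay below the lowest untreated array, and untreated array 1 was the nearest of the untreated arrays. The change at 5 μM was -0.33 (standard error 0.0812, 95% interval -0.52 to -0.15; limma, adjusted p = 0.0996, and 0.0344 with the block). The 2 highest values came from untreated arrays 2 and 3, and against untreated array 1 alone the change was -0.16 (limma, adjusted p = 0.452). A further probe set of the gene, 216894_x_at, whose suffix marks probes that can match other transcripts, was at -0.24 (limma, adjusted p = 0.21 and 0.0764 with the block). The remaining kept probe sets, 213182_x_at and 219534_x_at, have the same suffix. Their groups overlap and they passed in neither fit. The former read 7.06, 7.17 and 7.34 untreated and 7.07, 6.97 and 7.07 at 5 μM. The latter read 6.91, 7.26 and 7.26 untreated and 6.96, 6.95 and 6.99 at 5 μM. Changes of the 4 kept probe sets ran from -0.33 to -0.15.

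CDKN1B, which encodes p27, a further Cip/Kip inhibitor, had log2 signals of 11.21, 11.41 and 11.46 untreated, 10.96, 11.26 and 11.28 at 1 μM and 10.99, 11.16 and 11.16 at 5 μM. The 5 μM values lay just below the lowest untreated value. Within each replicate number the array at 5 μM was lower than the untreated array, by -0.22, -0.25 and -0.30. The change of -0.26 (standard error 0.105) did not pass without the block (limma, adjusted p = 0.262) and passed with it (limma, adjusted p = 0.0276). CDKN2D, an INK4 inhibitor of CDK4 and CDK6, was at 7.61, 7.52 and 7.62 untreated and 7.52, 7.55 and 7.44 at 5 μM, a change of -0.08 (95% interval -0.24 to 0.08; limma, adjusted p = 0.601).

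**Figure D1:**
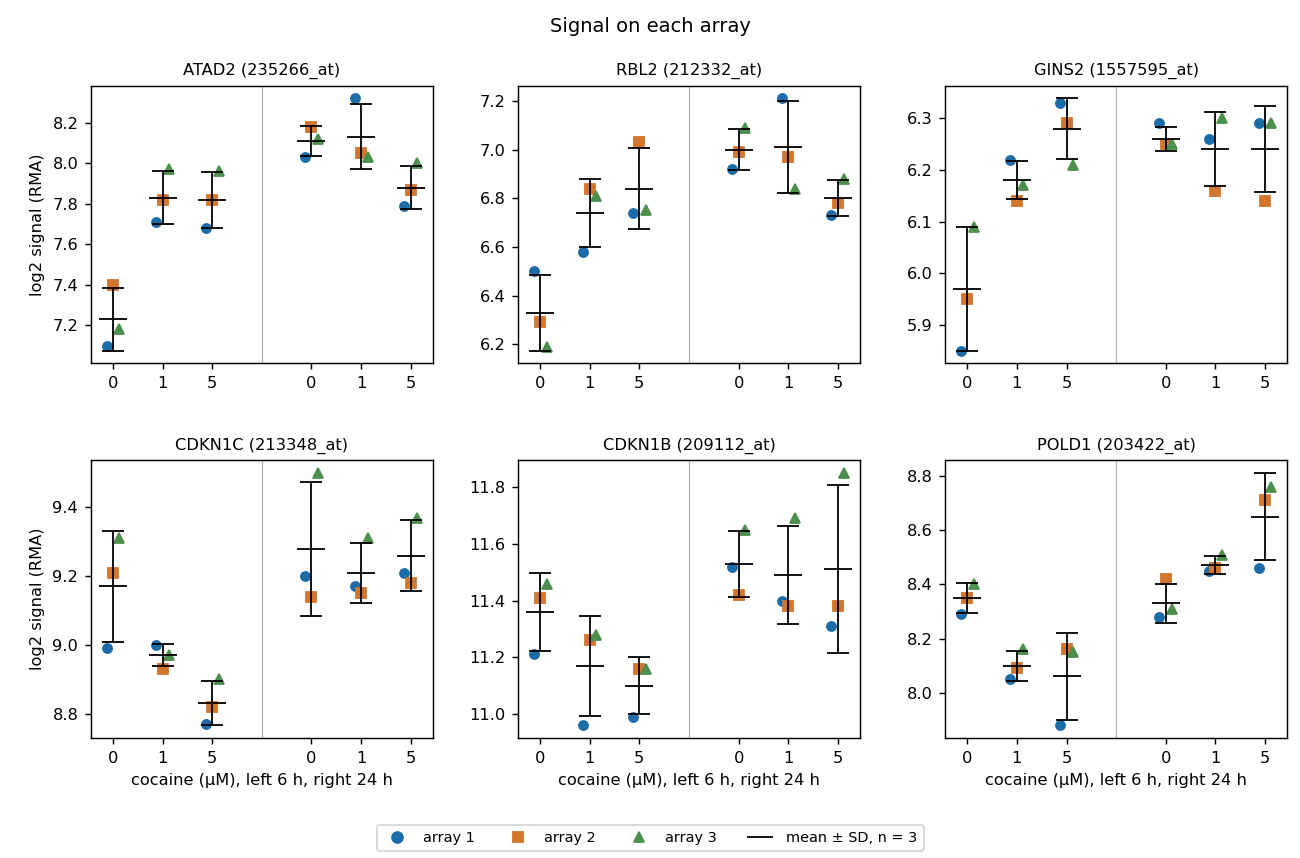
Log2 signal (RMA) of 6 probe sets on every array, by cocaine dose at 6 h (left of each panel) and 24 h (right), with the mean ± SD of 3 arrays as black bars. At 6 h the untreated arrays of ATAD2, RBL2 and GINS2 lie below all 5 μM arrays. Those of CDKN1C, CDKN1B and POLD1 lie above them. At 24 h ATAD2, RBL2 and POLD1 have the opposite order. The vertical axes do not start at 0 and differ between panels.

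Among cyclins and their kinases no probe set passed without the block. CCND3, cyclin D3, had signals of 7.87, 7.82 and 7.67 untreated, 8.02, 8.01 and 7.92 at 1 μM and 7.92, 8.08 and 8.03 at 5 μM. All cocaine arrays were above all untreated arrays, by a mean of 0.23 at 5 μM (standard error 0.0703; limma, adjusted p = 0.165, and 0.0695 with the block). With the block, 1 probe set of CCND1 (208711_s_at, 0.24, limma, adjusted p = 0.0783) and 1 of CDK6 (224851_at, 0.32, limma, adjusted p = 0.0593) also passed, although the untreated and 5 μM arrays of both overlap. Leaving out 1 array or replicate number moved the change from 0.07 to 0.38 for the former and from 0.08 to 0.64 for the latter. The brightest probe set of CCND1, a D-type cyclin, was at 11.52, 11.83 and 11.89 untreated and 11.56, 11.89 and 11.93 at 5 μM, a change of 0.05 (95% interval -0.33 to 0.43). CCNE1 and CCNE2, which encode the E-type cyclins, were at -0.01 (95% interval -0.17 to 0.14) and 0.12 (95% interval -0.22 to 0.46) at their brightest probe sets. The other kept probe set of CCNE2, 211814_s_at, read 6.78, 6.26 and 5.82 untreated and 6.59, 6.95 and 6.91 at 5 μM, a change of 0.53. Its groups overlap and it passed in neither fit. Without untreated array 1 it was at 0.77 and passed (limma, adjusted p = 0.0666), as did 10.8% of all probe sets.

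The pocket proteins gave different values. RBL2 encodes p130, the family member most associated with cells that have left the cycle. Its probe set 212332_at had signals of 6.50, 6.29 and 6.19 untreated, 6.58, 6.84 and 6.81 at 1 μM and 6.74, 7.03 and 6.75 at 5 μM. Cocaine arrays all lay above untreated arrays, and the change at 5 μM was 0.51 (standard error 0.114; limma, adjusted p = 0.083). RB1 itself, the retinoblastoma protein, was at 10.78, 10.70 and 10.58 untreated and 10.50, 10.51 and 10.46 at 5 μM, a change of -0.20 (standard error 0.0684; limma, adjusted p = 0.198, and 0.0887 with the block). RBL1, which encodes p107, was at 7.01, 7.24 and 7.09 untreated and 6.98, 6.79 and 6.99 at 5 μM, where the groups barely failed to overlap and the change of -0.19 did not pass in either fit. None of the E2F factors passed.

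Of the licensing genes, CDT1 had the smallest p. This loader of the MCM ring, degraded once S phase begins, had signals of 8.70, 8.80 and 8.84 untreated, 8.44, 8.74 and 8.71 at 1 μM and 8.35, 8.60 and 8.61 at 5 μM at probe set 228868_x_at. The 5 μM arrays were lower in each replicate number, by -0.35, -0.20 and -0.23 (mean change -0.26, standard error 0.101; limma, adjusted p = 0.244, and 0.0332 with the block). This probe set also has the suffix of probes that can match other transcripts, and the other probe set of CDT1, 209832_s_at, was at 0.03 (95% interval -0.24 to 0.30). The MCM subunits passed neither fit, with MCM5 at 0.03 and -0.01 over 2 probe sets and MCM7 at -0.04 at probe set 210983_s_at. At the brightest probe set the 12 licensing genes had a median change of -0.027, with 3 higher and 9 lower.

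GINS2 encodes a subunit of the GINS complex, the part of the replicative helicase that joins after licensing. Probe set 1557595_at had signals of 5.85, 5.95 and 6.09 untreated, 6.22, 6.14 and 6.17 at 1 μM and 6.33, 6.29 and 6.21 at 5 μM, with all untreated arrays below all cocaine arrays. The change at 5 μM was 0.31 (standard error 0.0693; limma, adjusted p = 0.0845). The probe set is dim, less than 1 log2 unit above the filter of 5.32.

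In the synthesis group POLD1, the catalytic subunit of polymerase delta, was at 8.29, 8.35 and 8.40 untreated, 8.05, 8.09 and 8.16 at 1 μM and 7.88, 8.16 and 8.15 at 5 μM. Every cocaine array was below every untreated array, and the change at 5 μM was -0.29 (standard error 0.0822; limma, adjusted p = 0.138, and 0.0336 with the block). POLE, the catalytic subunit of the leading-strand polymerase epsilon, was at 7.75, 7.89 and 8.05 untreated and 7.60, 7.80 and 7.83 at 5 μM. Its groups overlap, and the change of -0.16 passed with the block alone (limma, adjusted p = 0.0785). PCNA, the sliding clamp, was at 12.40, 12.47 and 12.37 untreated and 12.24, 12.39 and 12.42 at 5 μM, a change of -0.06 (95% interval -0.23 to 0.11).

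Among genes of nucleotide supply and S phase chromatin, ATAD2, an AAA ATPase with a bromodomain that binds newly replicated chromatin, had the smallest p of all members. Probe set 235266_at had signals of 7.10, 7.40 and 7.18 untreated, 7.71, 7.82 and 7.97 at 1 μM and 7.68, 7.82 and 7.96 at 5 μM. The change at 5 μM was 0.59 (standard error 0.105, 95% interval 0.35 to 0.83; limma, adjusted p = 0.0573), and the nearest untreated and cocaine arrays were 7.40 and 7.68. TYMS, thymidylate synthase, and RRM2, the small subunit of ribonucleotide reductase, were at -0.09 and -0.07, with intervals of -0.26 to 0.08 and -0.23 to 0.09.

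The 3 probe sets that rose were not the brightest of their genes, and no other probe set of the same genes was called higher. ATAD2 has 4 probe sets past the filter. At 5 μM they changed by 0.59 (235266_at), 0.00 (218782_s_at), -0.14 (228401_at) and -0.34 (222740_at), a range of 0.93. The last is the brightest: it read 9.61, 9.65 and 9.54 untreated and 9.05, 9.35 and 9.38 at 5 μM, with no overlap, and was lower with the block (limma, adjusted p = 0.0538, and 0.204 without). For RBL2 the brighter probe set, 212331_at, read 9.50, 9.68 and 9.49 untreated and 9.33, 9.49 and 9.47 at 5 μM, a change of -0.13. For GINS2 the brightest, 221521_s_at, read 9.90, 9.93 and 9.92 untreated and 9.77, 9.97 and 10.04 at 5 μM, a change of 0.00, and the remaining one, 243136_at, was at 0.24 without passing (limma, adjusted p = 0.399). With only the brightest probe set of each gene tested, none of the 56 members passed (limma), as against 0.804% of 11943 genes. Of the 56, 7 had an unadjusted limma p under 0.05, for which the share of all genes was not counted. Over all kept probe sets, 11 of the 98 had one, against 17.2% of all. Over the 29 members with several probe sets past the filter at 6 h, the range of changes within a gene had a median of 0.11, and in 15 of them probe sets had opposite signs.

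**Figure D2:**
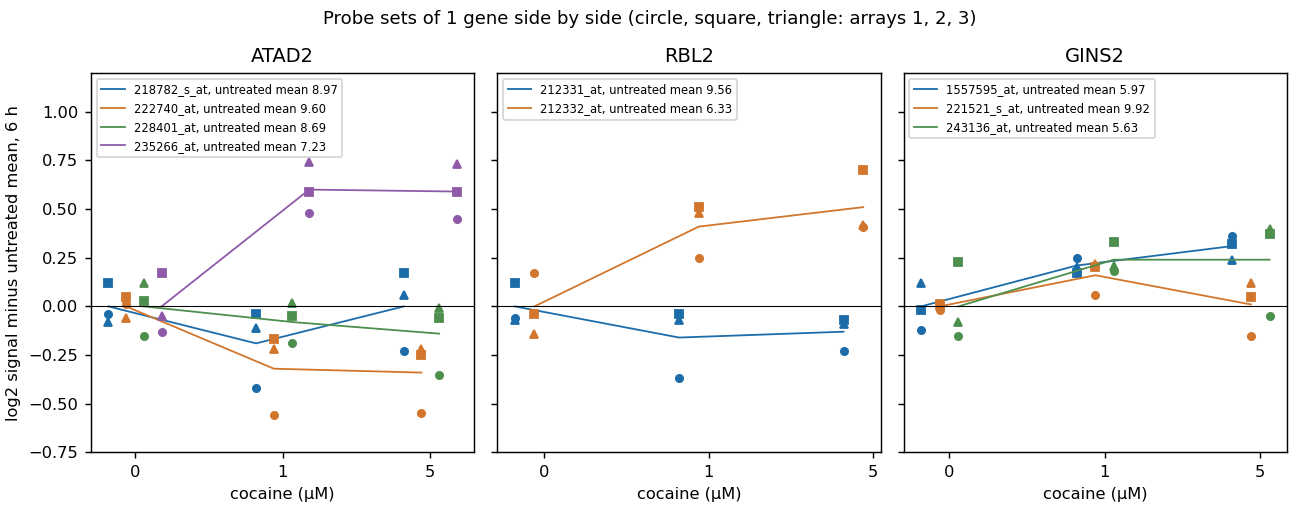
Log2 signal at 6 h minus the untreated mean of the same probe set, for each array (circle, square and triangle for arrays 1, 2 and 3) and as lines through the means, by cocaine dose in μM. In ATAD2, RBL2 and GINS2 a dimmer probe set, 235266_at, 212332_at or 1557595_at, rises to 0.59, 0.51 and 0.31 at 5 μM, and the brightest lies at -0.34, -0.13 and 0.00.

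At 1 μM and 6 h no member passed without the block (limma; 11 of 98 had an unadjusted p under 0.05, or 11.2%, against 14.3% of all probe sets), and 0 of all 22455 passed. The block gave 8 member probe sets, 4 higher and 4 lower, or 8.16%, against 12.5% of all, 5.11% higher and 7.44% lower. The same untreated arrays serve both doses, so the values at 1 and 5 μM are not independent and are given side by side. ATAD2 (235266_at) was at 0.61 and 0.59, RBL2 (212332_at) at 0.41 and 0.51, POLD1 at -0.25 and -0.29, CDKN1B at -0.19 and -0.26, RB1 at -0.23 and -0.20, and ATAD2 (222740_at) at -0.32 and -0.34. These 6 passed with the block at both doses. PRIM1, the primase subunit that starts each new strand, was at 0.17 and 0.07, and RFC2, a subunit of the clamp loader, at 0.18 and 0.10 (1053_at), and both passed with the block at 1 μM alone (limma, adjusted p = 0.0679 and 0.0732). Between 5 and 1 μM at 6 h no member passed in either fit, nor did any other probe set (limma; 3 of 98 had an unadjusted p under 0.05, against 6.45% of all).

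At 24 h no member probe set passed in any comparison in either fit. Over the array 3 of 24307 probe sets passed at 5 μM, 0.0123%, or 0.00823% with the block, and 0 at 1 μM. Between 5 and 1 μM the shares were 0.00823% and, with the block, 0.00411% (limma; 7 of 101 members had an unadjusted p under 0.05, against 6.12% of all). Without the adjustment, 13 of 101 member probe sets had a limma p under 0.05 at 5 μM, 12 higher and 1 lower, or 12.9%, against 7.2% of all probe sets, 4.21% higher. At 1 μM the numbers were also 12 higher and 1 lower, against 3.37% of all, 2.07% higher. These unadjusted counts rested on single arrays: at 5 μM the 13 became 3 without untreated array 2, 6 without untreated array 3 and 16 without untreated array 1, and at 1 μM 4, 3 and 30. At 1 μM the 13 became 6 with arrays centred or quantile normalised. The shares of all probe sets in these settings were not counted, so the swings cannot be read as particular to the members. POLD1 had the smallest p at 5 μM: it read 8.28, 8.42 and 8.31 untreated, 8.45, 8.46 and 8.51 at 1 μM and 8.46, 8.71 and 8.76 at 5 μM, with no overlap, a change of 0.31 (standard error 0.0832; limma, adjusted p = 0.525). POLE read 7.73, 7.99 and 8.03 untreated and 8.17, 8.20 and 8.32 at 5 μM, a change of 0.32 (limma, adjusted p = 0.566). These are the catalytic subunits that copy the strands, and at 24 h both sat above untreated cells on every 5 μM array.

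Other members with the smallest p of their role at 5 μM and 24 h were MCM5 at 0.34 (201755_at; 7.66, 7.33 and 7.50 untreated, 7.90, 7.68 and 7.96 at 5 μM), E2F1, an activating E2F, at 0.24 (2028_s_at; 7.01, 6.84 and 6.71 against 7.18, 7.01 and 7.09) and MCM10, which helps to fire licensed origins, at 0.15 (222962_s_at; 9.37, 9.17 and 9.23 against 9.38, 9.41 and 9.44). Their groups do not overlap, although MCM5, E2F1 and MCM10 each have an untreated array 1 close to the cocaine arrays. CDK4 was at 0.11 and CDKN2D at -0.10, both with overlapping groups. The Cip/Kip inhibitors stayed near the untreated level: CDKN1B was at -0.02 (95% interval -0.35 to 0.32) and CDKN1C at -0.02 (95% interval -0.26 to 0.21).

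Counted at the brightest probe set, with no test, 42 of the 56 members were higher at 5 μM than untreated at 24 h (75%, median change 0.0659), against 51.3% of all genes (median 0.0023). At 1 μM 49 of 56 were higher (87.5%, median 0.0815), against 57.4% of all genes (median 0.0117). All 7 cyclins and CDKs, all 12 licensing genes, all 5 helicase genes and all 6 genes of nucleotides and S phase chromatin were among those higher at 1 μM. So were 13 of 14 DNA synthesis genes and 6 of 9 pocket protein and E2F genes. The 3 inhibitors had values below 0 at both doses, which at 5 μM were -0.02, -0.02 and -0.10. The sign of CDKN1B and CDKN1C turned when 1 array was left out, and the other probe sets of CDKN1C reached 0.12. The shift depended on the replicate number, a breakdown added after seeing the data: between the arrays of number 1, 23 of 56 members were higher at 5 μM and 24 at 1 μM, between those of number 2 42 and 46, and between those of number 3 53 and 50. Over all genes the shares for numbers 1, 2 and 3 were 46.1%, 56.4% and 50.8% at 5 μM and 51.6%, 56% and 52.3% at 1 μM. The number 3 untreated array is the one with high retinoid-induced genes. At 6 h the same counts at 5 μM were 10, 29 and 35 of 56 for numbers 1, 2 and 3, against 33.8%, 39.8% and 43.3% of all genes, and the member median over all arrays was -0.0229, near the -0.0339 of all genes, with 21 of 56 higher against 38.9% of all genes.

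**Figure D3:**
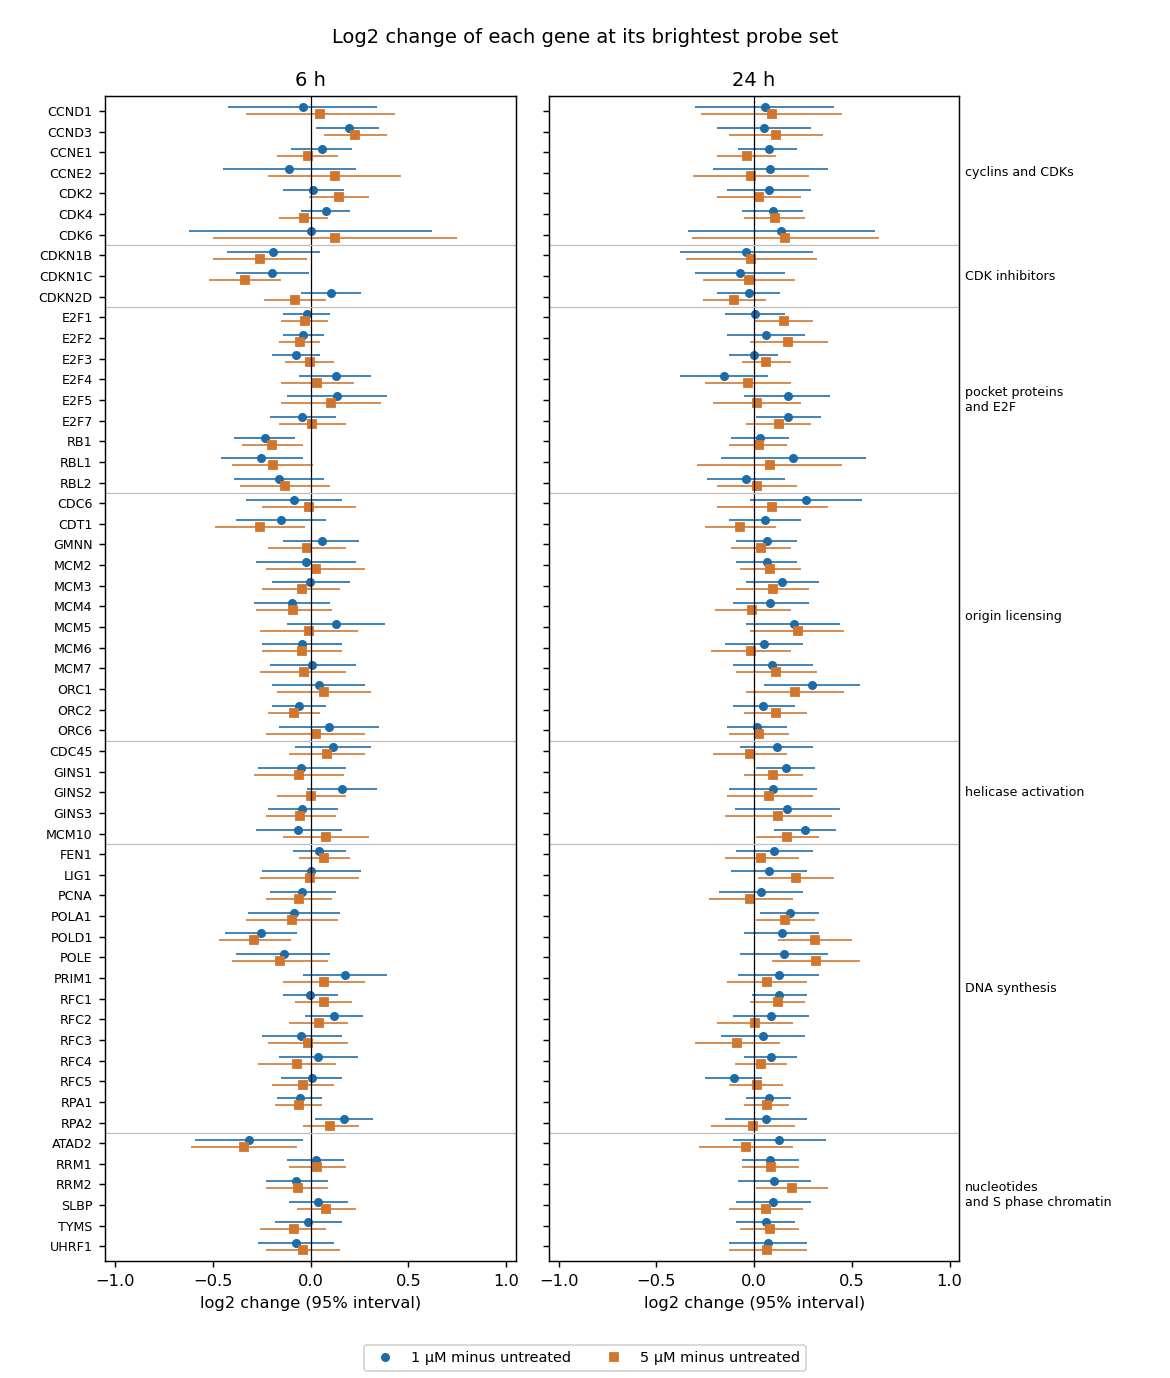
Log2 change against untreated cells of each of the 56 genes at its brightest probe set, with 95% intervals from limma, at 6 h (left) and 24 h (right), for 1 μM (circles) and 5 μM (squares), with genes grouped by role. At 6 h most points lie near 0, with CDKN1B, CDKN1C, POLD1 and ATAD2 on the left, and at 24 h 42 (5 μM) and 49 (1 μM) of the 56 points lie to the right of 0.

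The difference between the 5 μM effect at 6 h and at 24 h was tested itself, over 22358 probe sets kept at both times. It passed for 4 of 98 member probe sets, 4.08%, against 4.21% of all (1.97% higher, 2.24% lower). ATAD2 (235266_at) changed by 0.59 at 6 h and -0.22 at 24 h, a difference of 0.82 (standard error 0.145; limma, adjusted p = 0.0106). RBL2 (212332_at) changed by 0.51 and -0.20, a difference of 0.72 (standard error 0.155; limma, adjusted p = 0.03). POLD1 went from -0.29 to 0.31, a difference of -0.60 (standard error 0.118; limma, adjusted p = 0.0178), and GINS2 (1557595_at) from 0.31 to -0.02, a difference of 0.33 (limma, adjusted p = 0.0768). POLD1 is thus below untreated cells on every 5 μM array at 6 h and above them on every one at 24 h. The ACTB 3′ minus 5′ value also turned between the same groups, by -0.336 at 6 h and 0.295 at 24 h. Its part in these differences was not tested. With the block 13 passed, 13.3% against 15.9% of all, 3 higher and 10 lower, where 6.44% of all were higher and 9.46% lower. The 10 lower ones include POLE (-0.47; limma, adjusted p = 0.0034), E2F2 (228361_at, -0.23; limma, adjusted p = 0.0195), CDKN1C (213348_at, -0.31; limma, adjusted p = 0.0468), both probe sets of MCM5, and 1 each of MCM7, POLA1 and RRM2. Without untreated arrays 2 and 3 of 6 h, an alternative added after seeing the data, ATAD2 and GINS2 passed and POLD1 (limma, adjusted p = 0.135) and RBL2 (limma, adjusted p = 0.223) did not.

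**Figure D4:**
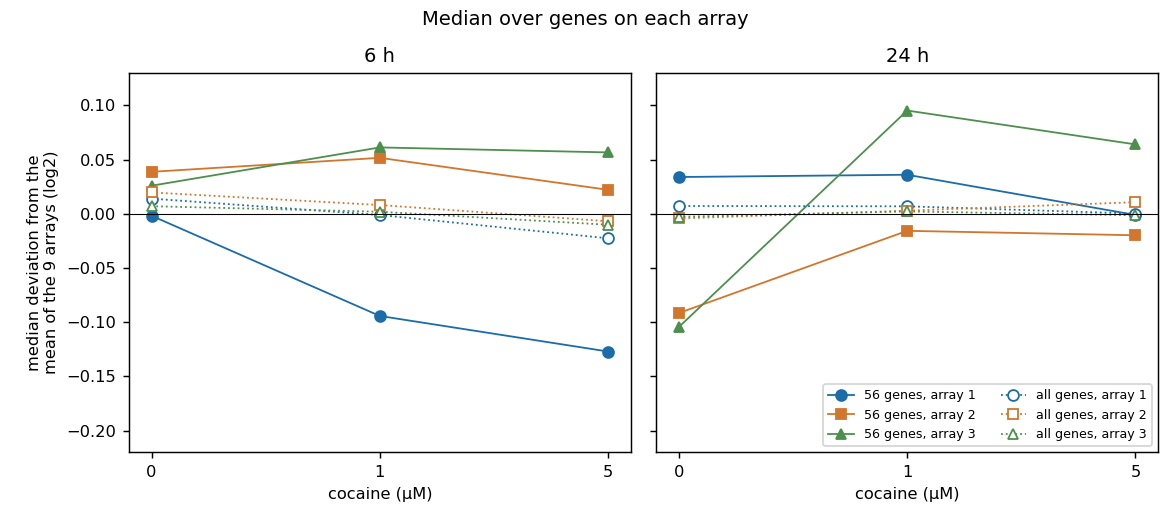
Median over genes of the deviation from the mean of the 9 arrays of a time (log2), for each array by cocaine dose in μM, for the 56 genes (filled, solid lines) and for all genes (open, dotted lines). At 6 h array 1 is the lowest for the 56 genes at each dose, -0.0018, -0.0942 and -0.127, and at 24 h untreated arrays 2 and 3 are the lowest, -0.0915 and -0.104. All genes lie between -0.0226 and 0.0197 on every array.

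At 6 h more of the variation of these genes went with the replicate number than with the dose. At the brightest probe set at 6 h, the replicate number took a median of 50.9% of the sum of squares over the 9 arrays and the dose 21.7%, against 38.1% and 31.1% over all genes. The share of the number exceeded that of the dose in 38 of 56 members and in 54.3% of all genes. At 24 h the medians were 39.6% and 27.8%, against 44.4% and 19.6% for all genes, and the number exceeded the dose in 36 of 56 members and 66.9% of all genes. At 6 h, 47 of 56 members were lower on the arrays of number 1 than on the others (median -0.13), against 50.8% of all genes (median -0.01). At 24 h 18 of 56 were lower there (median 0.03), against 46.6% of all genes. Total spread was alike, with a median SD over 9 arrays of 0.106 in the members and 0.108 over all genes.

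CDK6, a partner of the D-type cyclins, was the member with the largest difference of this kind, and at 6 h it was among the 9 of 56 members that were not lower on number 1. It and LIG1 were picked for these values after they were seen. The brightest CDK6 probe set, 224847_at, read 10.92, 10.19 and 10.08 on untreated arrays 1, 2 and 3 at 6 h, 10.77, 10.39 and 10.04 at 1 μM and 10.91, 10.46 and 10.19 at 5 μM. Number 1 was the highest and number 3 the lowest at every dose, and this order recurred at 24 h, with 11.09, 10.91 and 10.47 untreated. Markers of the substrate-adherent cell type also moved with the number: over the 5 past the filter, mean levels at 6 h lay between 8.41 and 8.68 on number 3 and between 9.20 and 9.32 on numbers 1 and 2, and those at 24 h between 8.84 and 9.28 on number 3 and between 9.62 and 9.77 on the others. Their part in the differences between replicate numbers was not tested. For CDK6 (224847_at) the number took 93.3% of the sum of squares at 6 h and the dose 3.1%. CCND1 was lowest on array 1 at each dose at 6 h and highest on array 3 at each dose at 24 h (11.66, 11.62 and 12.03 untreated), with 93.2% of its sum of squares by number at 6 h. LIG1, the ligase that joins the pieces of the lagging strand, read 9.19, 9.33 and 9.43 untreated and 9.11, 9.36 and 9.47 at 5 μM at 6 h, with 94.7% by number and 0.039% by dose.

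**Figure D5:**
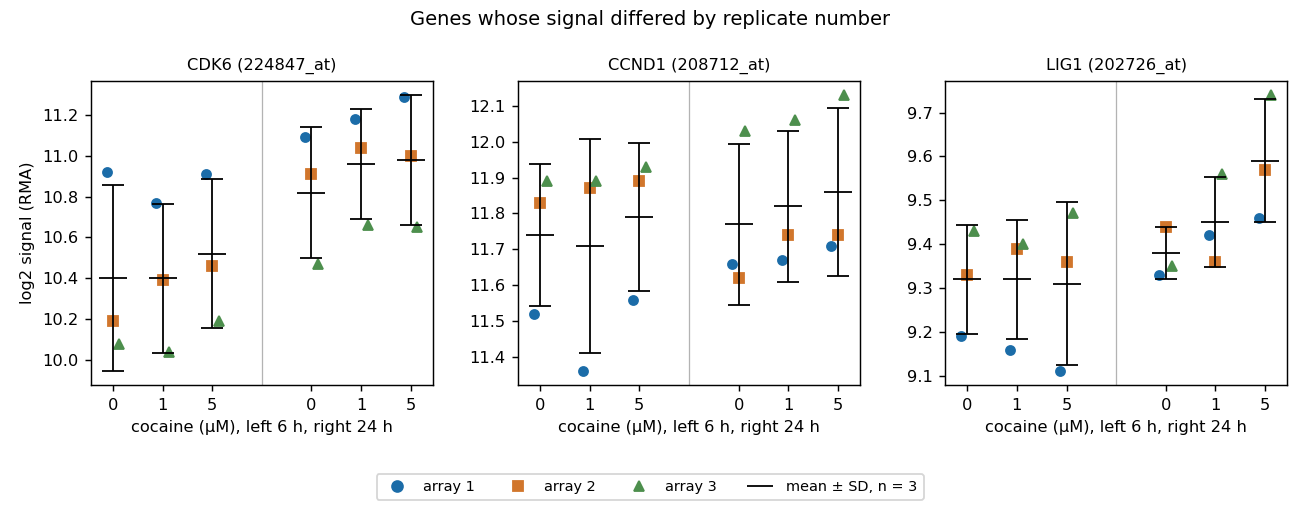
Log2 signal (RMA) of CDK6, CCND1 and LIG1 on every array by cocaine dose at 6 h (left of each panel) and 24 h (right), with the mean ± SD of 3 arrays as black bars. At 6 h array 1 (circles) is the highest for CDK6 and the lowest for CCND1 and LIG1 at each dose. The vertical axes do not start at 0.

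Other genes of the same pathway were counted in the same way. Of 49 genes outside the 58, which include CDKN1A, DBF4, CDC7, TIMELESS and CCNA2, 80 probe sets were tested at 6 h, and 1 passed at 5 μM, 1.25% against 2.98% of all, or 9 with the block, 11.2% against 18.6% of all. At 24 h 84 were tested and none passed (limma; 5 had an unadjusted p under 0.05). Of all probe sets 7.2% had one at 5 μM and 3.37% at 1 μM. At the brightest probe set 44 of 47 were higher at 1 μM and 24 h, and 34 of 47 at 5 μM, against 57.4% and 51.3% of all genes. For comparison, 28 G2/M and mitosis genes had a median change of -0.102 at 5 μM and 6 h, with 25 of 28 lower, where 38.9% of all genes were higher. None of their 45 probe sets passed without the block (limma; 10 had an unadjusted p under 0.05, against 17.2% of all probe sets). With it 11 passed, 9 of them lower, or 24.4%, against 18.6% of all probe sets, 10.9% lower. At 24 h 26 of 28 were higher at 1 μM and 21 of 28 at 5 μM, against the same 57.4% and 51.3% of all genes. Whether the lists differ from each other was not tested.

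Most members gave a signal above that of the typical gene in differentiated SH-SY5Y cells. At the brightest probe set 45 of 56 lay above the median level of all genes at 6 h (8.38) and 47 of 56 at 24 h (8.41). The probe sets with the highest mean log2 signal at 6 h belong to PCNA (12.38), TYMS (12.29) and CCND1 (11.75), and those with the lowest to E2F5 (7.48), RBL1 (6.96) and ORC1 (6.95), an origin recognition subunit made in G1. Signals of different probe sets depend on their probes as well as on RNA, so that this order describes the probe sets and not the amounts of RNA.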

How the data were processed

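RNA of SH-SY5Y cells was hybridised to 18 single-channel Affymetrix U133 Plus 2.0 arrays, 3 for each dose and time. The deposited values are log2 signals that the authors made with RMA, which corrects background, normalises and summarises probes by median polish, for the 6 h and 24 h arrays separately. The versions of these tools are not given in the sources used here. Of 54675 probe sets, 41097 carry 1 symbol, 1801 several and 11777 none in the platform annotation used here, and only the first kind was named. Symbols were updated through RefSeq gene identifiers, which matched 41043.

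Probe sets with a mean over 9 arrays above log2(40) and a symbol were kept, 22455 at 6 h and 24307 at 24 h. The threshold is the study's, but applying it to the mean and keeping probe sets by the annotation used here were choices of this work, so the set tested is not that of the study. Doses were compared with limma 3.58.1 (R 4.3.3) on the 9 arrays of a time without a block, with Benjamini-Hochberg adjusted p under 0.10. The difference between times was fitted on 18 arrays. The replicate number, which the labels give as a biological replicate, was a block in the alternative fit. Named were member probe sets called in any fit, the smallest p of each role at 5 μM, the inhibitors and cyclins, and the 3 brightest and 3 dimmest. The members and lists were chosen with earlier results of these data known. Nothing says that dishes of 1 number were handled together beyond that label, and p-values measure the spread between arrays. The number of arrays limits the precision.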

Additional observations from a re-analysis of the deposited data

Results flagged for a closer look

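In 4 probe sets the effect of 5 μM cocaine differed between 6 h and 24 h by the test of the difference itself (limma, adjusted p under 0.10 over 22358 probe sets): ATAD2 235266_at by 0.82, RBL2 212332_at by 0.72, GINS2 1557595_at by 0.33 and POLD1 203422_at by -0.60. In ATAD2 and RBL2 the arrays of the 5 μM and untreated groups do not overlap at either time and the sign turns, from 0.59 to -0.22 and from 0.51 to -0.20. GINS2 differed from untreated cells at 6 h and was level with them at 24 h (6.29, 6.25 and 6.25 untreated, 6.29, 6.14 and 6.29 at 5 μM). Leaving out 1 array at a time gave differences of 0.75 to 0.90 for ATAD2, 0.62 to 0.80 for RBL2, -0.69 to -0.51 for POLD1 and 0.27 to 0.39 for GINS2. The first 3 passed in all 12 of these fits, with adjusted p up to 0.0338, 0.0748 and 0.0465 from limma, and GINS2 in 4 of 12. Without untreated arrays 2 and 3 of 6 h together, which leaves 1 untreated array there, the differences of RBL2 and POLD1 shrank to 0.55 and -0.54. Those of ATAD2 and GINS2 were 0.95 and 0.44. The differences are those of single probe sets: at 6 h the brightest probe sets of ATAD2, RBL2 and GINS2 were at -0.34, -0.13 and 0.00.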

How the results depend on the processing

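The count of 4 of 98 member probe sets at 5 μM and 6 h was not stable, and nor was the share of all probe sets. That share was 2.98% in the main fit and is given in brackets below. The count was 14 with the replicate block (18.6%) and 3 with arrays centred on the median (2.65%). It was 3 without a signal filter (1.59%) and 4 with a filter at log2(64) (2.96%). Where it was 0 with more than 1 untreated array kept, 7 to 13 had an unadjusted limma p under 0.05. The shares of all probe sets for this were not counted in those settings. In the main fit 11 did, against 17.2% of all probe sets. The count was 2 after quantile normalization (2.77%) and 0 with an adjusted p under 0.05. It was also 0 with the 6 arrays compared alone (0.583%) and with 1 probe set per gene (0.804%). Leaving out 1 array, or with the block 1 replicate number, gave 0 to 28 (0% to 28.4%). The count was 10 without untreated array 1 (10.8%), 2 without 1 μM array 1 (2.77%) and 1 without 1 μM array 2 or 3 (1.04% and 1.68%). It was 0 without untreated array 2 or 3 (0.129% and 0.294%) or any 5 μM array (0.387%, 0% and 0.00445%). With the block it was 28 without number 1 (28.4%) and 0 without number 2 or 3 (0% and 0.0356%). At 1 μM and 6 h the count of 0 became 8 with the block (12.5%) and 0 to 13 on leaving out 1 array or number. It was 4 without untreated array 1 (4.28%) and 13 with the block without number 1 (15.1%). Between the times the count of 4 (4.21%) became 13 with the block (15.9%), and 3 to 4 without 1 array. The block changed no call at 24 h or between 5 and 1 μM.

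Directions of the 4 probe sets called at 6 h held in every alternative run. Without untreated arrays 2 and 3, which leaves 1 untreated array assumed to vary like the other groups, ATAD2 (235266_at) was at 0.72, GINS2 at 0.42, RBL2 (212332_at) at 0.34 and CDKN1C (213348_at) at -0.16, and none passed. In the same setting CDK6 (224851_at) turned to -0.32, CCNE2 to -0.05 and CCNE1 to 0.04. CCNE1 was at 0.00 with arrays centred and 0.02 after quantile normalization. Leaving out 1 array or number, signs also turned in values near 0. At 6 h CCND1 (208712_at) ranged from -0.07 to 0.17 and CCNE1 from -0.05 to 0.04. At 24 h CDKN1B ranged from -0.18 to 0.09, CDKN1C (213348_at) from -0.09 to 0.09, CCND1 from -0.04 to 0.22, CCNE1 from -0.09 to 0.01 and CCNE2 from -0.14 to 0.15. The causes were not tested.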
